A study of Mus musculus with 8 samples.

Results

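The 39 coding genes of the mouse Hox clusters were examined in teratoma-derived and endogenous muscle progenitors, before and after expansion in culture. They were taken by symbol (Hoxa, Hoxb, Hoxc or Hoxd followed by a paralog number) and make up 39 of the 24980 genes in the deposited table. Cluster a holds 11 of them, cluster b 10, cluster c 9 and cluster d 9. The study asked whether myogenic progenitors obtained from pluripotent cells can be amplified in vitro and how far they still resemble satellite cells, the resident stem cells of skeletal muscle. Total RNA of 8 mouse libraries was sequenced, 2 for each of 4 groups.

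TF were freshly isolated myogenic progenitors from teratomas. The teratomas grew from EGFP-labeled E14 embryonic stem cells, a single line, injected into irradiated and cardiotoxin-injured tibialis anterior muscles of NSG-mdx4Cv mice, and the cells were sorted as EGFP+, positive for VCAM-1 and α7-integrin, and negative for CD45 and CD31. TE were the same kind of cells at passage 8. SF were freshly isolated endogenous satellite cells and SE were satellite cells at passage 8. The satellite cells came from adult muscle, and the strain and the muscle were not given in the sources used here. Cell line or animal, and the site the cells came from, cannot be told apart from origin.

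Hox genes encode homeodomain transcription factors that give cells a position along the head-to-tail axis and along the limb. In each cluster the genes lie in the order in which they are used, with low paralog numbers acting towards the head and early, and high numbers acting towards the tail and the end of the limb. Clusters a and d pattern the limb, and adult muscle cells and fibroblasts are known to keep a Hox profile that records where in the body they came from. Embryonic stem cells hold the clusters silent under Polycomb proteins, which mark them with a repressive histone modification.

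The labels were checked first against myogenic markers. All 8 markers (Pax7, Myf5, Myod1, Itga7, Vcam1, Cdh15, Chrna1 and Des) exceeded 3 counts in each library, and their summed normalized counts ran from 20950 to 26070 in TF, 40120 to 40910 in TE, 35200 to 43880 in SF and 56920 to 63140 in SE. Des was the largest part of the sum in each library. Pax7, Myf5 and Vcam1 were lower in every expanded library than in every fresh one. Mean Pax7 was 3990 in TF, 1372 in TE, 4313 in SF and 1458 in SE, and mean Vcam1 4527, 590, 5978 and 1411. Myod1, Itga7, Cdh15, Chrna1 and Des had higher means in TE than TF and in SE than SF. A normalized count is the estimated read count of a gene divided by the size factor of its library. Markers of other cells were present in the fresh groups. The 7 fibro-adipogenic markers, genes of the connective tissue progenitors of muscle, summed to between 30860 and 30990 in TF and between 18230 and 29080 in SF, with all 7 over 3 counts, but to between 37.0 and 99.6 in TE and between 113 and 119 in SE, where Dpt, one of the defining genes, was at 0 in both TE libraries. Summed endothelial markers ran from 1114 to 3765 in TF and from 4896 to 6078 in SF, against at most 36.9 in an expanded library. The 5 cartilage markers summed to between 6492 and 10570 in TF and between 4618 and 4788 in SF, against at most 188 in TE and 971 to 1900 in SE. Sox9 made up most of the sum in SF (4381 and 4727), TE and SE (1893 and 966). Haematopoietic markers ran from 700.2 to 6287 in TF and 423 to 446 in SF against at most 97.8 in an expanded library, with Ptprc at 0 in the expanded cells, and Schwann cell markers from 1041 to 1369 in the fresh libraries against at most 177. Summed pericyte and smooth muscle markers lay between 6723 and 23700 over the 8 libraries. Acta2 made up most of that sum in the expanded cells (22590 and 22390 in TE, 5208 and 21850 in SE). Each other marker of that list was lower in every expanded library than in every fresh one, with Kcnj8 at 0 in TE and SE. The neural sum was highest in TE (1081 to 1319, at most 630 elsewhere), where Stmn2 made up most of it (1197 and 993.7). Elavl4, Sox2 and Neurod1 were at 0 in both TE libraries. Many of the markers of other cells move with every fresh against expanded comparison of Hox genes given here, and their part in those results was not tested. In a bulk library, fewer cells of a type and less RNA per cell cannot be told apart.

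Library totals ran from 11930961 to 21146632 estimated counts. Library SF1 stood apart, with 20595 genes over 3 counts against 14485 to 16799 in the other 7, and it held reads of genes that SF2 lacked, such as Cdx2, an intestinal and tail-end homeobox gene (51.0 against 0). Values that rest on SF1 are named as such. Nothing in the labels says how the 2 replicates of a group relate, so p-values measure only the spread between these libraries.

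All clusters matched the GENCODE M21 annotation of GRCm38. Cluster a lies on chromosome 6 (52155590 to 52260880, minus strand), cluster b on chromosome 11 (96194316 to 96368256, plus strand), cluster c on chromosome 15 (102921103 to 103036852, plus strand) and cluster d on chromosome 2 (74668310 to 74765142, plus strand). In all, 8 pairs of members have overlapping gene models, with Hoxa3 spanning Hoxa4, Hoxa5 and Hoxa6 and Hoxc5 spanning its neighbours. Only Hoxc5 with Hoxc10 and Hoxd3 with Hoxd4 share exon bases (166 and 388), so the split of reads within these pairs is uncertain.

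Upstream sequences are shown for 4 members that were lower in TE than TF but whose promoters differ in base composition, 250 bases each, directly before a RefSeq transcription start (GRCm38.p6), written 5′ to 3′ on the gene's strand with every CpG in capitals. CpG pairs are the substrate of DNA methylation, and CpG-dense promoters are the usual targets of Polycomb proteins. Hoxa9 (chr6:52227371-52227620, minus strand, inside an intron of the longer annotated transcript) and Hoxa10 (chr6:52240855-52241104, minus strand) are genes of the limb and trunk. Hoxd8 (chr2:74704365-74704614, plus strand) was the member with the highest level per kilobase in TE, and Hoxd13 (chr2:74667975-74668224, plus strand), the digit gene, was at 0 there.
Hoxa9: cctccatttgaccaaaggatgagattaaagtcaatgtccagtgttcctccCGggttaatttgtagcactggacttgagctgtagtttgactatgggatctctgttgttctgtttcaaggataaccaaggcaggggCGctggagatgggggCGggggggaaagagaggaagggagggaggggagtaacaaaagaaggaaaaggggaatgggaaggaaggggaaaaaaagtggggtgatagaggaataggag
Hoxa10: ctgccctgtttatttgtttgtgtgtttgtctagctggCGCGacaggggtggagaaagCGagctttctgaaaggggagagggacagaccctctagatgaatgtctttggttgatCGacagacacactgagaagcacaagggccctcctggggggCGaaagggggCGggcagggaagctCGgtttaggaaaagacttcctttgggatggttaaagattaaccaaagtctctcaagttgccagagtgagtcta
Hoxd8: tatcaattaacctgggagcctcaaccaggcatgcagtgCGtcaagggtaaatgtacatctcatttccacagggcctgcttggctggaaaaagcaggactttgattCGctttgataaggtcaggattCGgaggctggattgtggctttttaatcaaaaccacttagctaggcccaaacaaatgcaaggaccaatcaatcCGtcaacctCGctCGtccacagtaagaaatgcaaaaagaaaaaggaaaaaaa
Hoxd13: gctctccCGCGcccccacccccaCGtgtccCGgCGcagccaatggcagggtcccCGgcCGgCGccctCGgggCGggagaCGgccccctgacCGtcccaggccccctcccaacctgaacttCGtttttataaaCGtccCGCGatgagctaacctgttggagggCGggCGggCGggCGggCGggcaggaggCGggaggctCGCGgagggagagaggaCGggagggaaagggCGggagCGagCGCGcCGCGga
The 4 stretches hold 3, 7, 6 and 31 CpG pairs in that order. RefSeq windows of 300 bases, 250 before and 50 after a start, were at hand for 22 of the 39 members (24 windows), with a median of 14.5 CpG pairs (range 4 to 45) against 7 over 32851 windows of all genes. A count of 14.5 or more was met by 34.6% of all windows. Hoxa10 has another RefSeq start, not shown, whose window holds 21 CpG pairs, against 12 in the window of the start shown. The CpG count given for Hoxa10 thus depends on the start chosen. The letters TGATNNAT, bound in vitro by Hox proteins together with their Pbx partners, occurred on either strand in 16.7% of the member windows and 8.85% of all windows, which describes these windows and not binding.

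As a family, Hox genes were nearly silent in TE and readily detected in the other groups. Summed over the 39 members, normalized counts were 1210 and 1039 in TF, 64.5 and 72.5 in TE, 3366 and 2599 in SF and 2949 and 2739 in SE. The TE libraries were the lowest, with means 16.4 times higher in TF (1124 ± 121, SD, n = 2), 43.5 times higher in SF (2982 ± 543) and 41.5 times higher in SE (2844 ± 148) than in TE (68.5 ± 5.67). As counts per library total (CPM), Hox reads made up 69.3 to 78.1 CPM in TF, 4.49 to 5.13 in TE, 135 to 189 in SF and 187 to 195 in SE. Over 3 counts in both libraries were 25 members in TF, 3 in TE, 26 in SF and 23 in SE, and 23 members had no count in either TE library against 3, 2 and 9 in the other groups. The 3 members over 3 counts in both TE libraries were 2 of cluster b and 1 of cluster d.

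**Figure D1:**
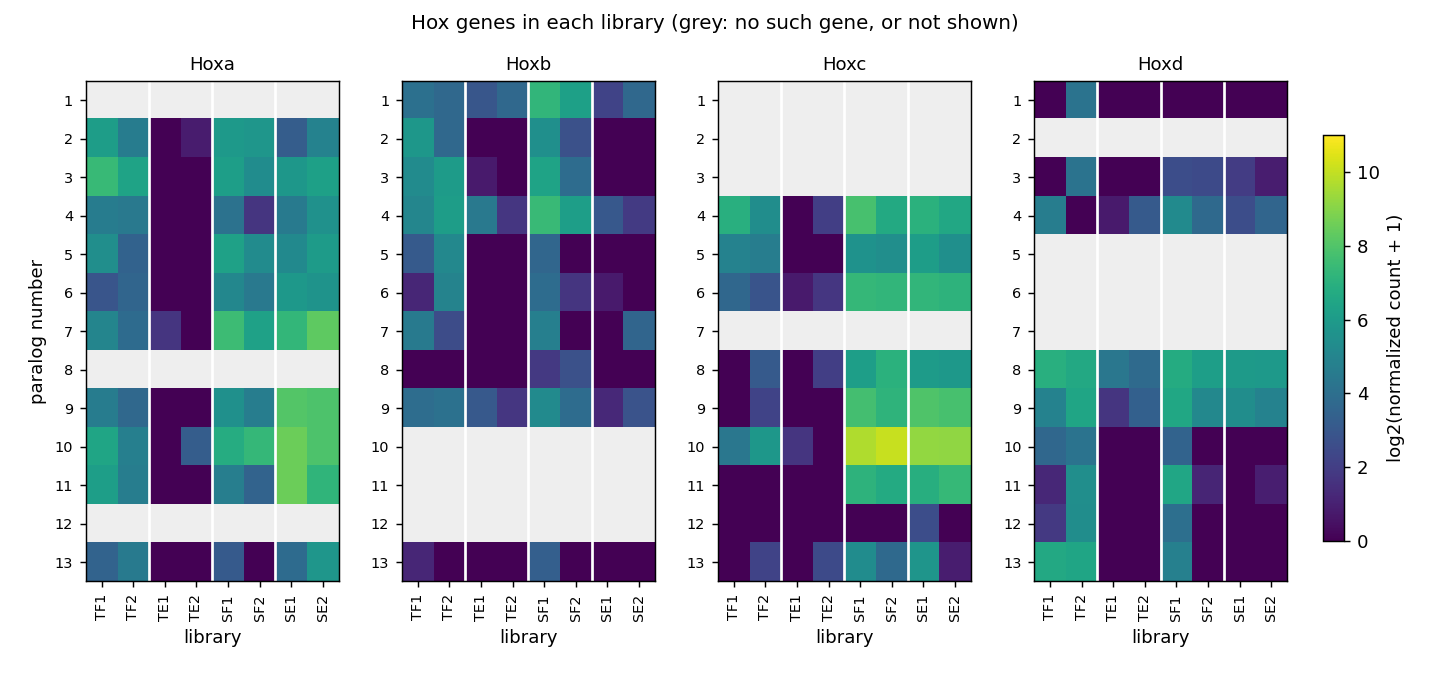
Heat map of log2(normalized count + 1) for each Hox gene (rows, paralog number) in each of the 8 libraries (columns), with 1 panel per cluster and grey where a paralog is absent from a cluster or not shown. The TE columns are dark in all 4 panels, the lower part of cluster c is brighter in SF and SE than in TF, and Hoxd11 and Hoxd12 stand out in TF2 and SF1.

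The groups also differed in which clusters carried the counts. In SE, cluster a summed to 1396 and 1307 and cluster c to 1429 and 1297, while cluster b summed to 12.9 and 31.9 and cluster d to 112 and 103. Clusters a and c thus held 47.5% ± 0.277 and 47.9% ± 0.774 of the Hox counts of SE (SD, n = 2), and cluster b 0.8% ± 0.513. SF was carried by cluster c (1722 and 1767, 59.6% ± 11.9), with cluster a at 705 and 522. Its clusters b (553 and 187) and d (387 and 123) were higher in SF1 than in SF2. TF was spread more evenly, with 34.6% ± 15 in cluster a, 19.5% ± 5.37 in cluster b, 14.3% ± 0.975 in cluster c and 31.5% ± 10.6 in cluster d. The cluster c share of TF lay below that of each satellite cell library, and its cluster d share (24.0 and 39.1%) above it (at most 11.5%). In TE the shares rest on few reads, since cluster a held 4 and 16 estimated counts and cluster c 4 and 17.04 before normalization.

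**Figure D2:**
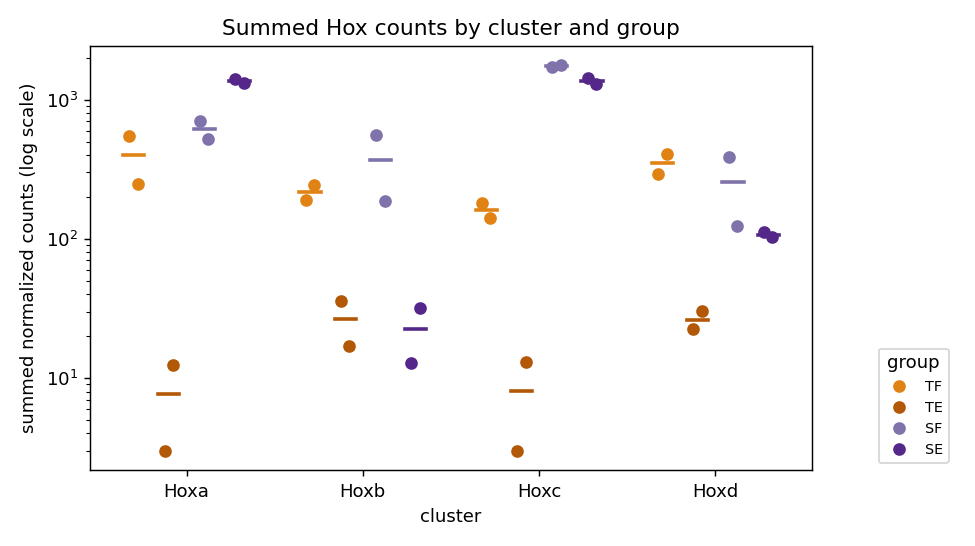
Summed normalized counts (log axis) of the members of each Hox cluster, with 1 point per library and a bar at the mean of the 2 libraries of a group. Clusters a and c lie above 1000 in both SE libraries and below 20 in both TE libraries, whereas cluster b is low in both expanded groups.

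By paralog number, the groups differed at the head end and in the middle to tail of the series. Paralogs 1 to 3 made up 29.8 and 22.4% of the Hox counts in TF, 14.5 and 11.1% in SF and 3.85 and 5.89% in SE. Paralogs 9 and 10 made up 15.3 and 20.9% in TF, 39.9 and 56.0% in SF and 51.4 and 48.3% in SE. For both of these bands the 2 TF libraries lay outside the range of the 4 satellite cell libraries. Paralogs 11 to 13, the tail end, made up 15.3 and 21.2% in TF, above both SF libraries (10.5 and 4.96%) and overlapping SE (19.0 and 13.3%). Per kilobase of transcript, which allows genes to be set side by side, Hoxc10 was the highest member in SF (504) and SE (305), followed by Hoxc6 (98.3) in SF and by Hoxa10 (118) in SE. The highest members of TF were Hoxa3 (48.4), Hoxd8 (41.9), Hoxc4 (38.3) and Hoxd13 (37.5), and no member of TE exceeded the 6.18 of Hoxd8.

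**Figure D3:**
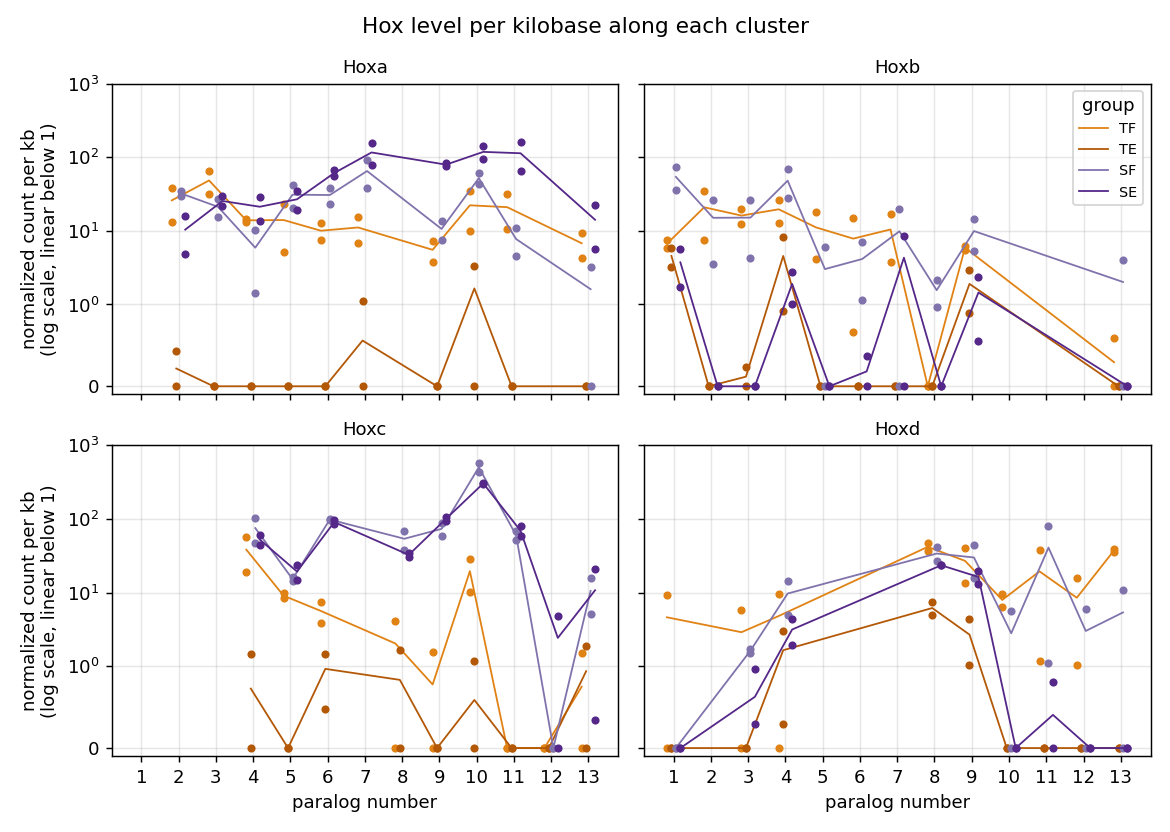
Normalized count per kilobase of transcript (log axis, linear below 1) against paralog number in each cluster, with points for the 2 libraries of a group and a line through their means. Hoxc10 reaches 504 in SF and 305 in SE, and TE stays near 0 in clusters a and c. The TF line lies below those of SF and SE from Hoxa5 to Hoxa10 and far below them from Hoxc6 to Hoxc11.

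The comparison of TE with SE asks what origin leaves after both cell types have been expanded. Of the 34 members that passed the filter for low counts, 13 were lower in TE and none higher, where 4.07% and 3.15% of all 17582 genes tested were called lower and higher. The filter took in all 4 groups, and only 3 members exceeded 3 counts in both TE libraries. The absence of higher calls therefore adds little. Hoxb2, Hoxb5, Hoxd10, Hoxd12 and Hoxd13 had no count in TE or SE and passed only through the fresh groups. A gene was called at a Benjamini-Hochberg adjusted p below 0.05 in edgeR's quasi-likelihood test and a log2 change beyond 0.32 in either direction. Before adjustment edgeR gave 19 members a p below 0.05 on the lower side and 0 on the higher, and DESeq2 called 19 and 0. The calls were 7 of 11 in cluster a (Hoxa3, Hoxa5, Hoxa6, Hoxa7, Hoxa9, Hoxa10 and Hoxa11) and 6 of 8 tested in cluster c (Hoxc4, Hoxc5, Hoxc6, Hoxc9, Hoxc10 and Hoxc11), and 0 in clusters b and d (0 and 1 at an unadjusted p below 0.05 in edgeR). For 20 of the 34 members both TE libraries lay below both SE libraries (26.9% of all genes), including all 11 of cluster a, and for 0 above (22.9% of all genes). Over the 29 members for which a ratio could be formed, with groups at 0 set to the 3-count floor, the median log2 ratio was -4.50, against -0.07 over all genes.

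Within cluster a, 4 genes of the trunk and limb carried the largest counts of SE. Hoxa9, a gene of the limb and lumbar level, had 268 and 245 normalized counts in SE and 0 in both TE libraries, at least 112-fold lower in TE (adjusted p = 0.0013, edgeR). Hoxa11, which patterns the forearm and lower leg, had 372 and 147 in SE and 0 and 0 in TE, at least 114-fold lower (adjusted p = 0.00307). Neither gene had a single read in TE. Hoxa10, a gene of the thigh and lumbar level, had 365 and 242 in SE and 0 and 8.48 in TE (log2 change -6.11, SE of the estimate 1.14, adjusted p = 0.0116). Hoxa7, a trunk gene, had 155 and 312 in SE and 2.25 and 0 in TE, a ratio of 199 with a 95% counting interval of 67.6 to 966 (adjusted p = 0.00423).

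Members of cluster a that act further towards the head were also at or near 0. Hoxa3, a gene of the pharyngeal arches, had 55.6 and 76.3 in SE and 0 in both TE libraries, at least 28.9-fold lower (adjusted p = 0.00522). Hoxa5, a gene of the neck and lung, had 36.5 and 64.4 in SE, and Hoxa6 57.9 and 48.9. Both were at 0 in TE, at least 22.1-fold and 23.4-fold lower (adjusted p = 0.0247 and 0.0294, edgeR). Each of these 2 calls was lost when either TE library was left out, with adjusted p up to 0.0967 and 0.152, and that of Hoxa6 also without either SE library or with a replicate block. Hoxa4 (21.5 and 46.3 in SE) and Hoxa13 (13.6 and 54.2) were at 0 in TE and did not pass the threshold. Hoxa2, with 8.58 and 28.3 in SE and 0 and 0.771 in TE, did not pass either.

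In cluster c the change was as large. Hoxc10, a gene of the lumbar level and hindlimb, had 587 and 578 in SE and 2.25 and 0 in TE, a ratio of 511 (175 to 2480, 95% counting interval, adjusted p = 0.000231). Hoxc9, of the thoracic level, had 253 and 225 in SE against 0 and 0, at least 105-fold lower in TE (adjusted p = 0.00178), and Hoxc11, of the hindlimb and sacral level, had 118 and 162 against 0 and 0, at least 61.5-fold lower (adjusted p = 0.00405). No library of TE came near a library of SE for these 3 genes. Hoxc6, a gene of the forelimb and thoracic level, had 152 and 136 in SE and 0.749 and 2.31 in TE (log2 change -6.43, SE of the estimate 0.870, adjusted p = 0.00237). Hoxc4 had 129 and 94.4 against 0 and 3.08 (log2 change -6.06, SE of the estimate 1.16, adjusted p = 0.0131), and Hoxc5 69.4 and 43.8 against 0 and 0 (at least 24.8-fold lower, adjusted p = 0.0145, up to 0.0711 and not called without TE1 or TE2). Hoxc8, of the thoracic level, had 64.0 and 57.8 against 0 and 3.12 and did not pass (adjusted p = 0.0988).

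Clusters b and d showed a different picture in the expanded cells, because SE was low there too. Hoxb4 had 7.15 and 2.63 in SE and 21.1 and 2.35 in TE, and Hoxb1 3.58 and 12.01 against 6.74 and 12.3, so the libraries of these groups overlapped. Hoxd8, the highest member of cluster d in SE, had 62.2 and 61.8 in SE and 19.5 and 13.1 in TE, a log2 change of -1.90 that missed the threshold (adjusted p = 0.144, edgeR). Hoxd9 had 41.5 and 28.3 in SE and 2.25 and 9.25 in TE (adjusted p = 0.255). Hoxd10, Hoxd12 and Hoxd13 had no count in any expanded library.

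**Figure D4:**
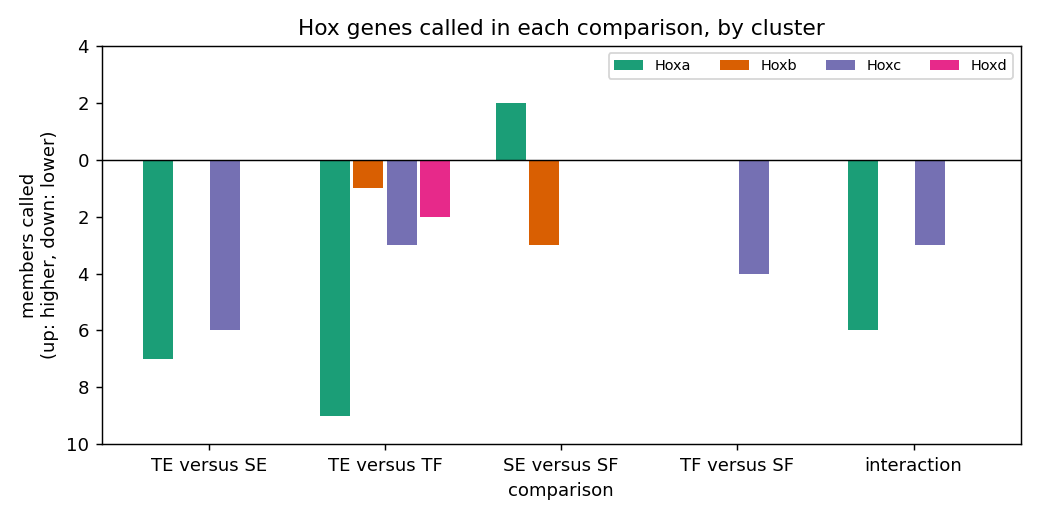
Number of Hox genes called higher (upward bars) or lower (downward bars) in each comparison, coloured by cluster; the interaction is the effect of expansion in teratoma-derived cells minus that in satellite cells. TE against SE has 7 calls in cluster a and 6 in cluster c, all lower, and upward bars stand only in SE against SF, for 2 genes of cluster a.

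Expansion of the teratoma-derived cells was compared next. Of the 34 members tested, 15 were lower in TE than in TF and none higher, where 16.2% and 9.86% of all genes were called lower and higher. The absence of higher calls again adds little to the low counts of TE, and Hoxc11 had no count in TF or TE. Before adjustment edgeR gave 21 members a p below 0.05 on the lower side and 0 on the higher, and DESeq2 called 18 and 0. In 28 members both TE libraries lay below both TF libraries (39.2% of all genes) and in 0 above (29.9%), and the median log2 ratio with zeros at the floor was -3.21 over 33 members against -0.24 over all genes. The calls were 9 of cluster a (Hoxa2 to Hoxa7, Hoxa9, Hoxa10 and Hoxa11), Hoxb3, Hoxc4, Hoxc5, Hoxc10, Hoxd8 and Hoxd13. In all, 10 members were lower in TE than in both TF and SE. The count of 15 fell to 8 without TF1, to 7 without TE1 and to 8 without TE2, while Hoxa3, Hoxa9, Hoxa11, Hoxc4, Hoxc5 and Hoxc10 passed under each of the 14 alternatives tried.

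Hoxa3 had the highest level per kilobase in TF, with 169 and 82.2 normalized counts against 0 and 0 in TE, at least 55.0-fold lower after expansion (adjusted p = 0.000901, edgeR). Hoxa11 had 71.4 and 24.6 in TF, at least 21.1-fold above TE (adjusted p = 0.00303), and Hoxa9 had 23.4 and 12.3, at least 7.82-fold above (adjusted p = 0.00321). Hoxc4, a gene of the neck, had 122 and 40.6 against 0 and 3.08 (log2 change -5.58, SE of the estimate 1.15, adjusted p = 0.00633). TF1 was well above TF2 for Hoxa11 and Hoxc4, but both stayed above TE. Hoxa10 had 88.3 and 25.8 against 0 and 8.48 (log2 change -3.67, SE of the estimate 1.07, adjusted p = 0.0315), a call lost without TF1 or TE1 or with only these 2 groups fitted (up to 0.128).

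Among the remaining calls, Hoxa2, a gene of the hindbrain and second pharyngeal arch, had 68.8 and 23.4 in TF against 0 and 0.771 (adjusted p = 0.0175), Hoxa4 23.4 and 20.9 against 0 and 0 (adjusted p = 0.0391) and Hoxa7 31.2 and 13.5 against 2.25 and 0 (adjusted p = 0.0207). Hoxa5 had 42.8 and 9.84 in TF (at least 11.6-fold above TE, adjusted p = 0.0142), Hoxa6 6.49 and 11.1 (at least 3.85-fold, adjusted p = 0.0376) and Hoxc5 28.6 and 24.6 (at least 11.7-fold, adjusted p = 0.00856). Hoxb3, a hindbrain and neck gene, had 39.0 and 64.0 against 0.749 and 0 (ratio 136, 95% counting interval 23.8 to 5450, adjusted p = 0.0346, edgeR). Hoxc10 had 19.5 and 55.4 against 2.25 and 0 (ratio 33.3, interval 10.8 to 166, adjusted p = 0.00196). Several of these calls depended on single libraries. Hoxa4 was lost under 7 of 14 alternatives and Hoxa6 under 8 of 13, among them the replicate block and each TF and TE library left out (adjusted p up to 0.177 and 0.169). Hoxb3 was lost without any 1 of the 4 libraries compared (up to 0.167), Hoxa5 without TE1 or TE2 (up to 0.0599), Hoxa2 without TF1 or TE1 (up to 0.106), and Hoxa7 without TF1 or TE2 or with only these 2 groups fitted (up to 0.0842).

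In cluster d, Hoxd13 had 98.7 and 87.4 in TF and 0 and 0 in TE, at least 40.8-fold lower after expansion (adjusted p = 0.0376). This call was not made by DESeq2 or without any 1 of the 4 libraries compared (adjusted p up to 0.122). Hoxd8 fell from 123 and 97.2 to 19.5 and 13.1 (log2 change -2.69, SE of the estimate 0.694, adjusted p = 0.0183) and was the only called member that kept more than 3 counts in both TE libraries. The call was lost without TF1, TE1 or TE2 (adjusted p up to 0.139). Hoxd9 had 28.6 and 86.9 in TF and 2.25 and 9.25 in TE and missed the threshold (adjusted p = 0.0693). In cluster b, Hoxb1 (15.6 and 12.3 against 6.74 and 12.3) and Hoxb4 (32.6 and 68.2 against 21.1 and 2.35) did not pass either.

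Fresh teratoma-derived cells were set against fresh satellite cells to ask how the positional profile differed before culture. Of 34 members, 4 were lower in TF and none higher, where 9.13% and 15.1% of all genes were called lower and higher. Before adjustment edgeR gave 8 members a p below 0.05 on the lower side and 0 on the higher, and DESeq2 called 8 and 0. Both TF libraries lay below both SF libraries in 14 members (33.5% of all genes) and above them in 5 (31%). All 4 calls were in cluster c. Hoxc10 had 837 and 1086 in SF and 19.5 and 55.4 in TF (log2 change -4.52, SE of the estimate 0.544, adjusted p = 0.000573), and Hoxc6 159 and 152 against 11.7 and 6.15 (log2 change -3.95, SE of the estimate 0.753, adjusted p = 0.00539). Hoxc9 had 209 and 140 against 0 and 3.69 (ratio 91.1, 95% counting interval 30.9 to 444, adjusted p = 0.00256), and Hoxc11 139 and 105 against 0 and 0 (at least 32.1-fold lower in TF, adjusted p = 0.00253). These 4 passed under each of the 14 alternatives, those without SF1 included.

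Other members of the fresh comparison did not pass. Hoxc8 had 71.9 and 130 in SF against 0 and 7.62 in TF (log2 change -4.56, adjusted p = 0.0623, edgeR). Hoxd13 ran the other way, with 98.7 and 87.4 in TF against 26.7 and 0 in SF (log2 change 2.97, adjusted p = 0.293), and its SF value came from SF1 alone. Medians of the log2 ratios, zeros at the floor, were -4.40 in cluster c and -0.94 in cluster a, and 0.09 and 0.30 in clusters b and d, against -0.08 over all genes.

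Expansion of satellite cells was the only comparison with members called in both directions, 2 higher (20.9% of all genes) and 3 lower (19.8%) in SE. Before adjustment edgeR gave 2 and 5 members a p below 0.05, and DESeq2 called 2 and 5. Both SE libraries lay above both SF libraries in 7 members (29.7% of all genes) and below them in 14 (42.2%). The higher genes were Hoxa9, with 268 and 245 in SE against 44.6 and 24.0 in SF (log2 change 3.10, SE of the estimate 0.714, adjusted p = 0.00863), and Hoxa11, with 372 and 147 against 25.2 and 10.3 (log2 change 4.05, SE of the estimate 0.907, adjusted p = 0.00749). Both calls were lost without SE1, at adjusted p = 0.0501 and 0.0782. Hoxa10 had 365 and 242 in SE against 110 and 157 in SF and did not pass (adjusted p = 0.233). The scaling moves the median log2 change of all genes here, from -0.23 with trimmed-mean factors to -0.43 with median-ratio factors, and both genes lay above 0 under either.

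The lower genes were Hoxb1, Hoxb3 and Hoxb4, members of the head end of cluster b that act in the hindbrain and neck. Hoxb4 had 175 and 71.4 in SF and 7.15 and 2.63 in SE (log2 change -4.42, SE of the estimate 1.29, adjusted p = 0.0216). Hoxb1 had 152 and 74.1 against 3.58 and 12.01 (log2 change -3.64, SE of the estimate 1.17, adjusted p = 0.0321), and Hoxb3 82.9 and 13.7 against 0 and 0 (at least 20.5-fold lower in SE, adjusted p = 0.0151). SF1 was above SF2 for each of them, as for the cluster as a whole, and without SF1 0 of the 3 passed. Without SE1 or SE2 there was 1 call. In cluster c no member passed (0 at an unadjusted p below 0.05), and Hoxc6 (159 and 152 against 152 and 136), Hoxc10 (837 and 1086 against 587 and 578) and Hoxc11 (139 and 105 against 118 and 162) stayed at high counts in both groups. Clusters a, b and d had median log2 ratios of 0.99, -3.62 and -1.62, against -0.42 over all genes on the same scale. That of cluster c was -0.04, or 0.15 from the fitted changes.

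The difference between the 2 effects of expansion was tested as an interaction, the change from TF to TE minus that from SF to SE. It was called below 0 for 9 of 34 members and above 0 for none, where 9.62% and 4.7% of all genes were called. For Hoxb2, Hoxb5, Hoxd10, Hoxd12 and Hoxd13, without a count in either expanded group, it could not be estimated. Before adjustment edgeR gave 16 and 0 members a p below 0.05, and DESeq2 called 12 and 0. The 9 were 6 of cluster a (Hoxa3, Hoxa5, Hoxa7, Hoxa9, Hoxa10 and Hoxa11) and 3 of cluster c (Hoxc4, Hoxc5 and Hoxc10). Among those with reads in TE, Hoxa10 differed by -5.04 on the log2 scale (SE of the estimate 1.39, adjusted p = 0.0397), Hoxc4 by -5.26 (SE of the estimate 1.41, adjusted p = 0.0356) and Hoxc10 by -4.32 (SE of the estimate 0.956, adjusted p = 0.0161). Without SF2 the count was 4, and Hoxa3, Hoxa9, Hoxa11 and Hoxc10 passed under each of the 13 alternatives. The 5 comparisons share libraries, so their calls are not independent of each other.

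The 16 members neither called nor at a group mean of 50 stayed low, with at most 89.7 normalized counts in any library (Hoxd11 in SF1, against 1.23 in SF2). Of the tail-end members of cluster d, Hoxd10 had 10.2 and 0, Hoxd12 15.3 and 0 and Hoxd13 26.7 and 0 in SF1 and SF2, and in TF2 Hoxd11 had 41.9 and Hoxd12 40.6 against 1.31 and 2.60 in TF1. Hoxb2 had 55.8 and 12.3 in TF, 43.3 and 5.70 in SF and no count in an expanded library. Hoxb5, Hoxb6 and Hoxb7 reached at most 34.5, and Hoxb9, at 14.3 and 16.1 in TF, kept 7.49 and 2.31 in TE. Hoxc13, a gene of hair and nail, reached 52.2 in SE1 and 0.858 in SE2. Another 5 members were not tested (Hoxb8, Hoxb13, Hoxc12, Hoxd1 and Hoxd3), and none of these exceeded 14 estimated counts in a library.

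Genes next to the clusters were read to see how far the low counts extended. Within 500 kb outside the clusters, 46 of 63 genes were tested, and TE against SE gave 1 higher (Igf2bp1) and 1 lower (Skap2), with a median log2 change of -0.05. Of all genes tested, 3.15% were called higher and 4.07% lower in that comparison. Skap2, an adaptor gene flanking cluster a, had 284 and 222 in SE, 345 and 348 in TF and 27.0 and 18.5 in TE (log2 change from SE to TE -3.45, SE of the estimate 0.424, adjusted p = 0.00154, edgeR). Beside cluster d, Lnpk, which encodes an endoplasmic reticulum protein, had 397 and 381 in TE, and Mtx2, a mitochondrial import gene, 389 and 302, both well above the cluster itself. Evx2, which lies between Lnpk and Hoxd13, was low like the cluster. It had 28.6 and 41.8 in TF, 2.55 and 2.28 in SF and 0 in the TE and SE libraries. Evx2 was not called between TE and TF (adjusted p = 0.0611, edgeR). Of the noncoding genes inside the clusters, Hoxa11os, transcribed opposite Hoxa11, had 189 and 124 in SE and 0 and 0 in TE (adjusted p = 0.0103). Its model overlaps that of Hoxa11 on the other strand, and since the use of strand in counting was not given, reads of the 2 genes cannot be told apart. Hotair, the noncoding RNA between Hoxc11 and Hoxc12, had 76.4 and 79.8 in SF, 44.3 and 54.1 in SE, 0 and 34.5 in TF and 0 in both TE libraries.

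**Figure D5:**
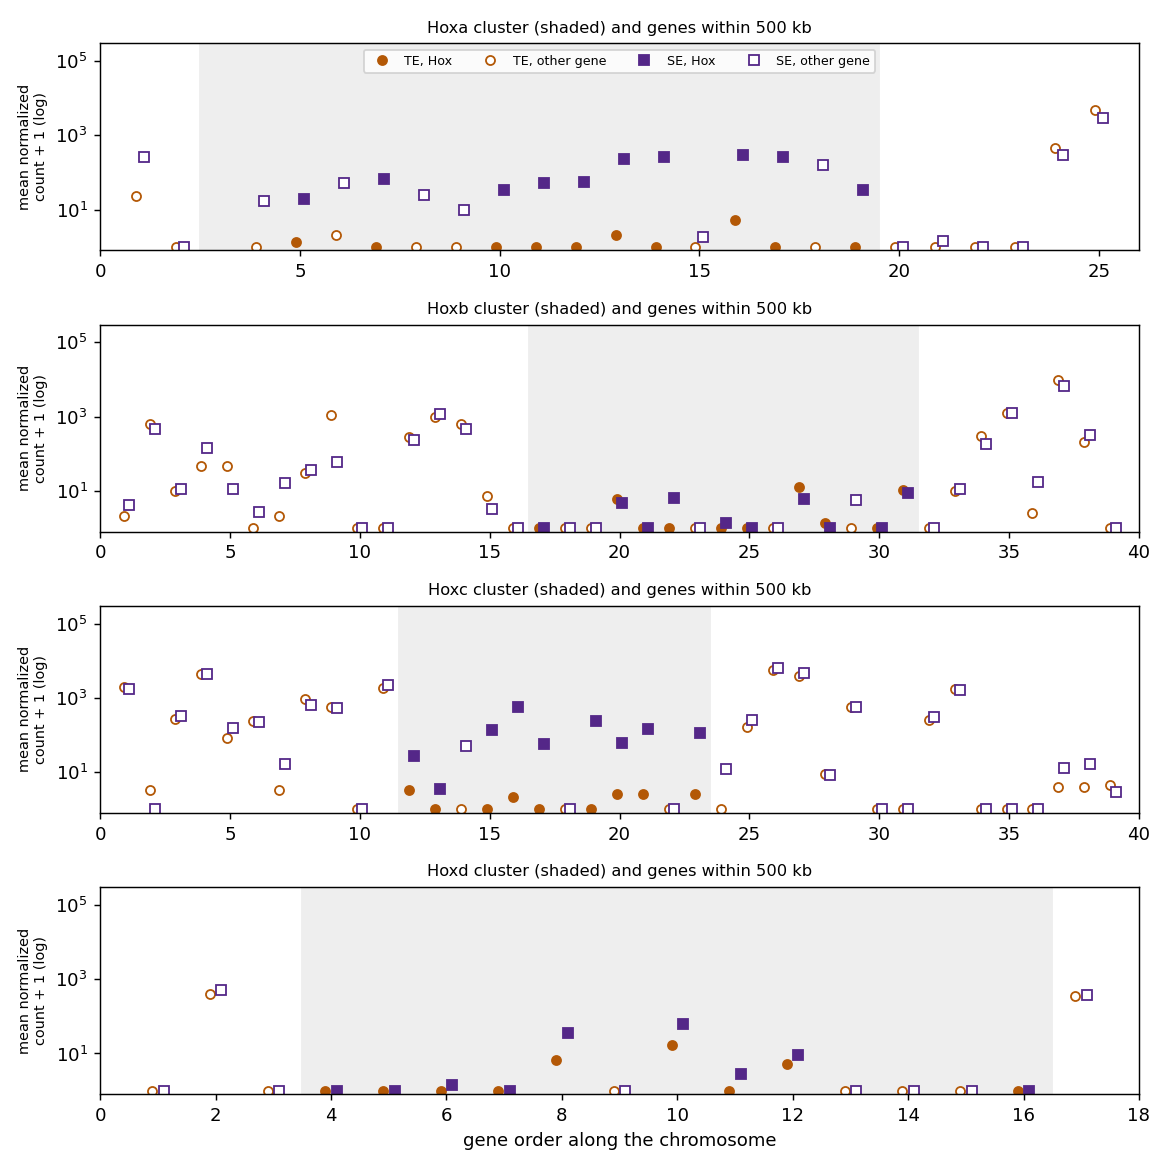
Mean normalized count + 1 (log axis) of the genes in and within 500 kb of each cluster, in their order along the chromosome, for TE (circles) and SE (squares), with Hox genes filled, other genes open, the cluster shaded and some genes not drawn. Within the shading of clusters a and c the TE circles lie at or near 1 while SE squares rise well above them, and outside it most pairs of circle and square lie close together, with Skap2 at the left of cluster a (mean 253 in SE, 22.7 in TE) and Igf2bp1 beside cluster b (59.0 in SE, 1127 in TE) among the exceptions.

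The partners and regulators of Hox proteins were read from lists. Of 11 tested TALE homeodomain cofactors, which bind DNA together with Hox proteins, 2 were higher in TE than SE and 0 lower. Among all genes tested 3.15% and 4.07% were called higher and lower, which also holds for the TE against SE counts that follow. At an unadjusted p below 0.05 in edgeR the counts were 3 and 0. The 2 called were Meis2 (595 and 645 against 59.4 and 77.3, log2 change 3.21, adjusted p = 0.00241, edgeR) and Meis1 (216 and 261 against 105 and 51.5, log2 change 1.63, adjusted p = 0.0473). In the fresh cells 7 of 11 were higher and 2 lower in TF than SF, where 15.1% and 9.13% of all genes were. Of 26 Polycomb genes, 2 were higher in TE than SE (among them Rybp, log2 change 1.23) and 0 lower (5 and 3 unadjusted), and the catalytic subunit gene Ezh2 had 1528 and 1429 in TE against 1259 and 900.2 in SE. Polycomb genes moved both ways from TF to TE, with 4 higher and 3 lower (9.86% and 16.2% of all genes), among them Jarid2 (log2 change -2.03) and Phf19, at 44.1 and 71.4 in TF and 0 and 0 in TE. Of 15 Trithorax and demethylase genes, whose products oppose Polycomb, 0 were called in either direction between TE and SE in edgeR (2 higher and 0 lower unadjusted), and 3 rose and 2 fell from TF to TE. The median log2 changes from SE to TE were 0.14, 0.08 and 0.10 for the cofactors, Polycomb genes and Trithorax and demethylase genes, against -0.0034 over all genes tested. In satellite cells 4 of the last list rose and 6 fell on expansion (20.9% and 19.8% of all genes), and the histone demethylase gene Kdm6b fell by 3.66 and Dot1l by 2.88 on the log2 scale.

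Other genes of position moved in both directions. Of 17 limb and head muscle identity genes tested, 3 were higher and 5 lower in TE than SE, where 3.15% and 4.07% of all genes were. Tbx4, a hindlimb factor, had 133 and 128 in SE, 193 and 151 in TF and 2.25 and 7.71 in TE (log2 change from SE -4.66, adjusted p = 0.0045, edgeR). Lbx1, which guides muscle precursors into the limb, had 773 and 571 in SE against 2.995 and 2.31 (log2 change -7.90, adjusted p = 4.07e-05), and Pax3 281 and 146 against 6.01 and 0 (log2 change -6.06, adjusted p = 0.00814). Unlike Tbx4, these genes were already lower in TF than SF before culture. Lbx1 had 35.1 and 61.5 in TF against 517 and 645 in SF, and Pax3 11.8 and 8.74 against 218 and 185. Barx2, a muscle homeobox gene, had 42.2 and 73.8 in SE, 534 and 651 in TF and 0 and 0 in TE (adjusted p = 0.00537 against SE). Pitx1, another hindlimb factor, was higher in TE than SE, at 171 and 112 against 0 and 6.01 (log2 change 5.59, adjusted p = 0.00963), and had 308 and 258 in TF. Of 10 tested axial patterning regulators, 0 were higher (0 unadjusted in edgeR) and 2 lower in TE than SE (among them Gdf11, log2 change -1.35). Of 23 other homeobox genes, 2 were higher and 2 lower, and Nkx2-5, a heart and pharyngeal factor, had 364 and 240 in TE and 0 in both SE libraries (adjusted p = 0.00173). The 15 tested genes of the noncoding and flanking list gave 0 higher (1 unadjusted in edgeR) and 2 lower, Hoxa11os and Skap2.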

How the data were processed

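The authors deposited estimated counts per gene, made with kallisto 0.44.0 against GRCm38/mm10 after CASAVA base calling per the submitters' processing notes, and named by gene symbol. The annotation and any use of read strand were not given in the sources used here. Libraries were made with a stranded total RNA kit for low input. Between 74.4 and 84.4% of the values were whole numbers, and all were rounded before testing. The table was fitted as a whole in edgeR 4.0.16 (R 4.3.3) with TMM factors, filterByExpr and 1 quasi-likelihood model over the 4 groups, and p-values were Benjamini-Hochberg adjusted over 17582 genes. Calls needed an adjusted p below 0.05 and a log2 change beyond 0.32, the study's fold threshold. The quasi-likelihood test reports no standard error. The printed SE of the estimate is the absolute log2 change divided by the square root of the F statistic of the test. Printed normalized counts use median-ratio size factors. Ratios against a group at 0 use a floor of 3 counts per library, and ratios resting on 1 to 3 counts carry a 95% interval, both for counting error only. This floor corresponded to 2.15 to 3.89 normalized counts. Replicates of a group differed by more than counting noise. Transcript lengths came from GENCODE M21, which matched 98.2% of the genes.

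All 39 members were eligible to be named. The values of some genes are not reported here, although they enter the counts and sums. Values per library were given for members called in any comparison or with a group mean of at least 50 normalized counts. At most 4 called genes with the largest change were to be named from each other list. Ezh2, Tbx4, Lnpk, Mtx2, Evx2, Hotair and Igf2bp1 were added after their values were seen. The members and lists were chosen with earlier results of these data known. The procedure was tested on simulated counts with 200 changed genes. Alternatives were median-ratio factors, no filter, DESeq2 1.42.0, pairwise fits, a replicate block, glmTreat and each library left out.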

Additional observations from a re-analysis of the deposited data

Results flagged for a closer look

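The effect of expansion on 9 Hox genes differed between the 2 origins by the interaction test of edgeR, the log2 change from fresh to expanded being lower in teratoma-derived cells than in satellite cells for each of them. The adjusted p was 0.0023 for Hoxa11, 0.00248 for Hoxa9, 0.00362 for Hoxa3, 0.0161 for Hoxc10, 0.0228 for Hoxc5, 0.0327 for Hoxa7, 0.0356 for Hoxc4, 0.0397 for Hoxa10 and 0.044 for Hoxa5. In 5 of the 9 both TE libraries were at 0 counts, so the size of the difference is not given for them.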

How the results depend on the processing

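Without 1 library in turn, the members lower in TE than TF numbered 7 to 15 (15 with all libraries), those higher in SE than SF 0 to 2 (2), those lower in SE than SF 0 to 3 (3) and those with an interaction below 0 4 to 9 (9). DESeq2 called 8 members lower in TF than SF and 5 lower in SE than SF, and testing every gene with a count also gave 5 for the latter. Per kilobase, the shares of clusters a, c and d in SE were 45.0, 50.8 and 3.28%, and the summed Hox counts of SE were 3017 with TMM factors. No direction reversed. The differences between the 2 libraries of a group correlated at -0.0231 to 0.066 between groups, which cannot settle whether same-numbered libraries were paired. With a replicate block, 12 members were lower in TE than SE, 13 lower in TE than TF, 5 lower in TF than SF, 2 higher and 2 lower in SE than SF and 7 below 0 in the interaction. Each group had 2 libraries, and a fit without 1 of them assumes that the lone library varies like the other groups. At TE depth, the floor of 3 counts used for ratios is 2.25 to 2.31 normalized counts, so falls in TE beyond it were not measured.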
